A study of Mus musculus with 24 samples.

Results

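The genes described here are 46 genes of DNA replication and S phase, out of 17464 genes listed in a bulk RNA-seq table of regulatory T (Treg) cells. They were chosen by name and known role, without any measured value entering the rule, though earlier results of these data were known. They fall into 10 classes, from the proteins that mark replication origins to the transcription factors and cyclins that open S phase. All 46 were listed and all 46 were tested. The samples were resting (rTreg, CD62L+ CD44-), activated (aTreg, CD62L- CD44+) and KLRG1+ (kTreg) Treg cells, sorted by flow cytometry from the spleens of wild-type C57BL/6JRccHsd mice. The 4 young mice were 2 months old and the 4 old mice 26 months old. No mouse carried a transgene or received a treatment in the labels used here. With 1 library from every subset of every mouse, the 24 libraries form 6 groups of 4. A level is given below as normalized reads, the reads of a gene divided by the size factor of its library.

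DNA replication starts where the origin recognition complex binds DNA and, with CDC6 and CDT1, loads the ring-shaped MCM helicase in G1. A kinase made of CDC7 and DBF4, with CDC45 and the GINS complex, turns the loaded ring into an active helicase at the G1/S boundary, and DNA polymerases, their clamp, ligase and the enzymes that make deoxynucleotides then copy the genome. E2F transcription factors and cyclin E drive the expression and the activity of much of this machinery, so its mRNAs are widely used to mark cells that are in or near S phase. Most T cells in the spleen are quiescent, and Treg cells include a fraction that divides in the steady state. In bulk RNA, a smaller share of cycling cells and less RNA of these genes per cycling cell cannot be told apart, and this holds for each comparison below.

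The promoters of the MCM helicase genes are shown because this class had the most genes with E2F-binding letters. Such letters are the textbook link between these genes. Promoter windows of 300 bases, 250 before the start and 50 from the start on, came from RefSeq (GRCm38.p6), and their positions below are those of an exact match to GRCm39. The letters searched were TTTCCCGC, TTTCGCGC, TTTGCCGC and TTTGGCGC on both strands. 38 of the 46 members had a window (Mcm4, Gins1, Gins2, Gins4, Prim2, Pole, Tipin and Ccne2 had none), and 15 of their 44 windows (34.1%) held at least 1 of these strings, against 2.26% of 32851 windows of all genes and 3.83% of the 13695 windows of genes tested here. The median GC content was 60.7% in the member windows and 60.0% in those of genes tested here. The MCM class was picked for having the most such genes, and 4 of its 5 genes with a window held them. Apart from Mcm3, each sequence shown is the stretch of its window before the annotated starts, 250 bases for Mcm5 and Mcm2, 176 for Mcm6 and 116 for Pcna. Matches are in capitals, and strings on opposite strands overlap in Mcm5 and Mcm6. Positions count from the RefSeq start, whose first transcribed base is 1. The Mcm5 matches lie 153 to 142 bases before the start (chr8:75835887-75836136, plus strand), the overlapping pair of Mcm6 110 to 99 bases before it (chr1:128287517-128287692, minus strand), and those of Mcm3 at bases 20 to 27 and 39 to 46 after it (chr1:20890491-20890517, minus strand, of which only the site is shown). A further Mcm6 match, 47 to 40 bases before the RefSeq start, lies outside the stretch shown, inside the gene as annotated by GENCODE. Mcm2 (chr6:88875763-88876012, minus strand) and Pcna (chr2:132095235-132095350, minus strand), the markers of this gene set, are shown for comparison and hold no match in their windows.
Mcm5: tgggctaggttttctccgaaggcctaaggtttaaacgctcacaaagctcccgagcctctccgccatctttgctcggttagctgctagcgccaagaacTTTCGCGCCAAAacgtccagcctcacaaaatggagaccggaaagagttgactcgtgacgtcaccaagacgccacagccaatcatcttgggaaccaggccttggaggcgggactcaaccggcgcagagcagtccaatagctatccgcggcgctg
Mcm6: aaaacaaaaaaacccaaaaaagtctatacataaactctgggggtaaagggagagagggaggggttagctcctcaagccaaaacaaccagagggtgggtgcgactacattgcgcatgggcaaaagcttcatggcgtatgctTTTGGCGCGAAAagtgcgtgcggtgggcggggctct
Mcm3: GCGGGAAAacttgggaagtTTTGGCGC
Mcm2: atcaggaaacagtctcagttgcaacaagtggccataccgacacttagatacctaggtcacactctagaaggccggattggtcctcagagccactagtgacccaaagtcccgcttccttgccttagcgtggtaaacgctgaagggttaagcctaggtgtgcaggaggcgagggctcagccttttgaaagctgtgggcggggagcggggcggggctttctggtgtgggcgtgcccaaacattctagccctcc
Pcna: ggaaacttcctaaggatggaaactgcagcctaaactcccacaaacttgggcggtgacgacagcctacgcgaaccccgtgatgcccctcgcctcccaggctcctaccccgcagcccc

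These strings describe the windows and are not bound sites. In old against young rTreg cells, the comparison with the most members called higher, the median log2 fold change was 0.73 over the 15 members with the letters and 0.61 over the 23 with a window that lacks them.

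Libraries on listed genes held 15045747 to 29521942 reads. Levels of the sorting genes Cd44 and Klrg1 followed the gates, and Foxp3, the lineage factor of Treg cells, had its lowest value, 5079 normalized reads, in old aTreg replicate 2. 4 sets of libraries stood apart. In old aTreg replicate 2 Foxp3 was below every other library (13150 or more), the Treg marker sum was 47593 and the median of 20 G2/M and mitosis genes was −0.411, against −0.913 to −1.023 in the rest of its group. Its median of the members was −0.124 (both medians as defined below). Young kTreg replicate 4 listed 4913 genes at 0, against 419 to 2756 in the other libraries, among them 5 members (Orc1, Cdc6, Mcm10, Gins1 and Ccne2). The 3 libraries of young mouse 2 held B cell marker sums of 18104, 10191 and 8046 normalized reads, against at most 2064 elsewhere. All 4 old rTreg libraries held RNA of other blood cells. The 7 basophil and mast cell markers summed to 4736 to 13120 normalized reads, against 160.6 to 199.3 in young rTreg, 157.2 to 374 in old aTreg and 107.9 to 731.7 in old kTreg libraries. All 7 genes were higher in each old rTreg library than in any library of those groups. Sums of macrophage and monocyte markers were 10180 to 26650 in old rTreg and 612.3 to 9063 in young rTreg libraries, with 1 of the 8 genes (Lyz2) above all young rTreg libraries. The highest macrophage sum of the 24 libraries, 32504, was in young kTreg replicate 2, whose median of the members was −0.057, and the other young kTreg libraries had 61.3 to 1121. Granulocyte precursor sums were 263.4 to 2751 in old rTreg, above those of young rTreg (35.96 to 196.1), old aTreg (19.63 to 56.66) and old kTreg libraries (48.55 to 218.1). Dendritic cell sums, 211.1 to 376.7, were above those of young rTreg libraries (53.2 to 199.4) and overlapped those of old aTreg and old kTreg libraries. Plasma cell marker sums were 3203 to 9574 against 115.4 to 1343, platelet 450.6 to 981 against 42.2 to 73.8 and NK cell 757 to 1679 against 244.9 to 508.5. B cell marker sums, 747.2 to 1576, were not raised in old rTreg libraries, where Fcer2a was at 0 in all 4. These values stand beside every result on old rTreg cells below, and their part in those results was not tested.

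**Figure D1:**
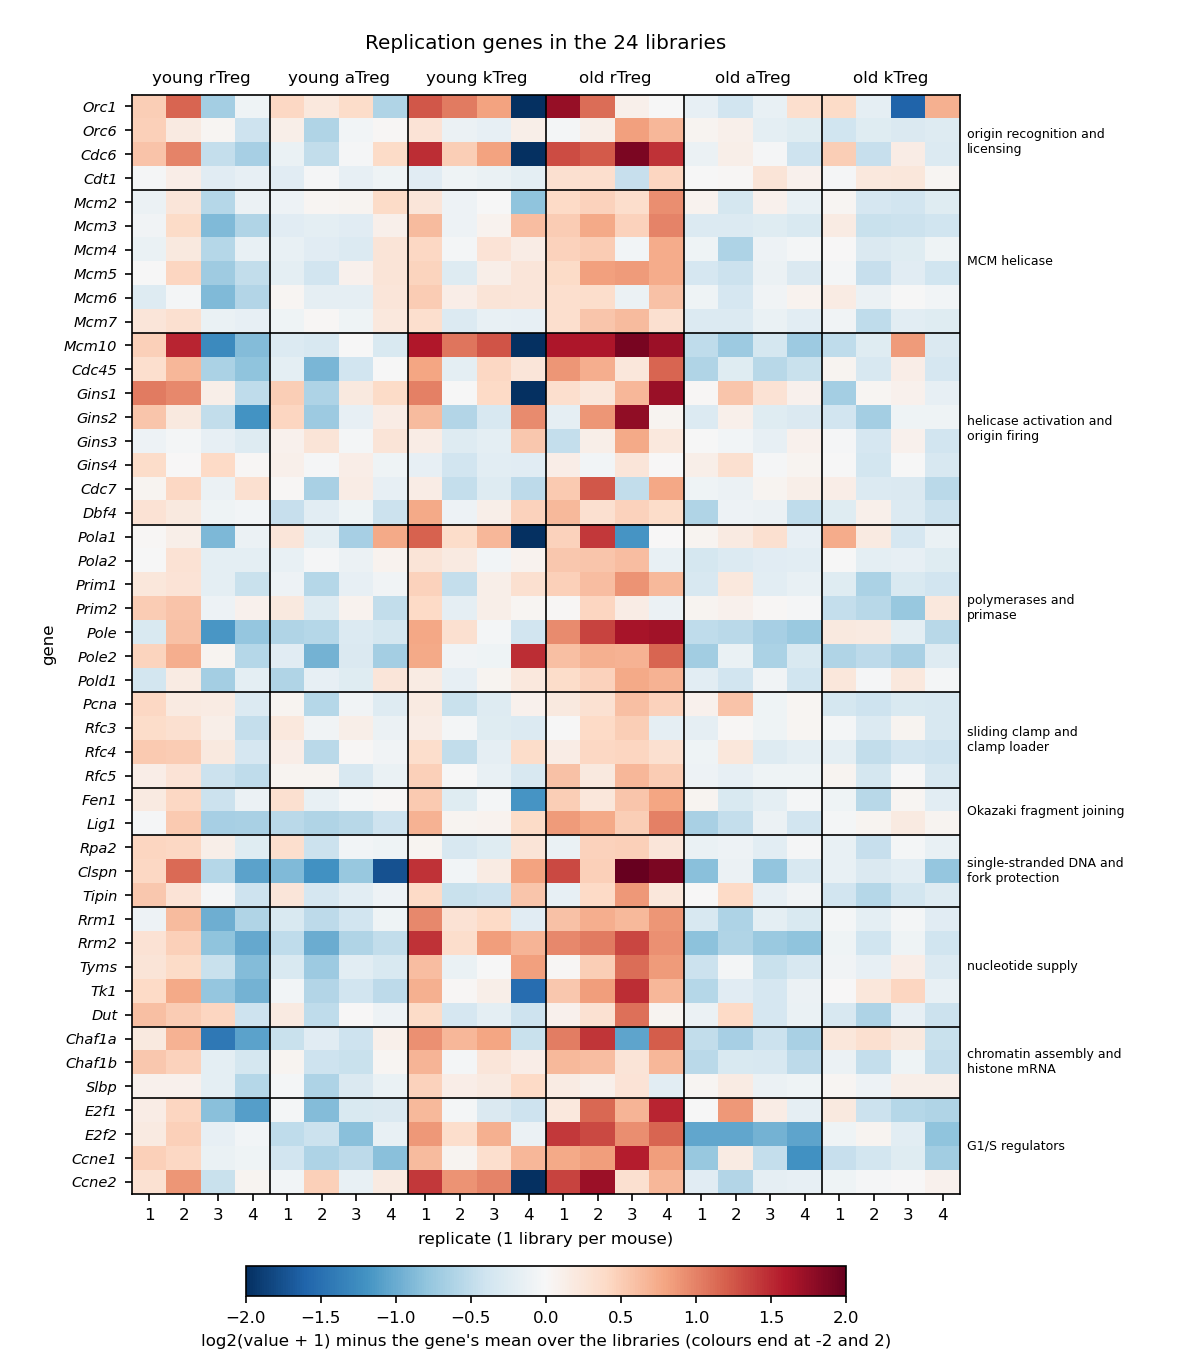
Heat map of the 46 replication genes (rows, grouped by class) in the 24 libraries (columns, by group and replicate), with colours for log2(value + 1) minus the mean of the gene over all libraries, from −2 (blue) to 2 (red). The old rTreg libraries are the reddest block, young rTreg replicates 1 and 2 and young kTreg replicate 1 are also red, and the dark blue cells of young kTreg replicate 4 are the members listed at 0 or near 0.

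Replication genes were highest in the resting Treg cells of old mice. The mean level of 43 of the 46 members was highest in old rTreg cells, the exceptions being Gins4 and Prim2 (young rTreg) and Slbp (young kTreg). The lowest mean fell in old aTreg cells for 17 members and in old kTreg cells for 16. The ratio of the highest to the lowest group mean was above 2 in 19 members, led by Clspn (6.52), Mcm10 (4.92), E2f2 (4.71), Pole (4.14) and Rrm2 (3.52), and below 1.5 in 6, among them Rfc3 (1.26), Cdt1 (1.28) and Gins3 (1.29). As a summary of each library, the median of the members, each taken relative to its own mean over all libraries on the log2 scale, was 0.472, 0.556, 0.624 and 0.667 in the old rTreg libraries. The old aTreg libraries had −0.193, −0.124, −0.174 and −0.183, and the old kTreg libraries −0.044, −0.305, −0.127 and −0.270. Young rTreg libraries were split, with 0.271 and 0.415 in replicates 1 and 2 and −0.429 and −0.415 in replicates 3 and 4, the widest spread of the 6 groups. Young aTreg libraries had −0.070, −0.424, −0.163 and −0.087, and young kTreg libraries 0.566, −0.057, 0.067 and 0.076.

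Differences between groups were tested with limma across 16630 genes on log2(value + 1), in 1 model of the 6 groups, and p-values were adjusted by the Benjamini-Hochberg method over all of those genes. A gene was called where the adjusted p was below 0.05 and the fold change above 1.5, and errors of log2 fold changes are standard errors (SE). Tested members are described in the order in which their proteins act.

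Origin recognition and licensing gave the fewest calls of the 10 classes. Its members Orc1 and Cdc6 were listed at 0 in young kTreg replicate 4 and had wide errors in all comparisons, which leaves little room for a call. Orc6 (ENSMUSG00000031697, chr8:86026219-86034912), a subunit of the origin recognition complex, had levels of 889.7, 727, 654 and 478 in young rTreg and 623, 689.9, 1134 and 1017 in old rTreg libraries. Its old aTreg libraries had 663, 685, 559 and 537 and its old kTreg libraries 485, 538, 523 and 533. The kTreg values of old mice lay in a narrow range below all 4 old rTreg values, and those of young kTreg cells (775, 590, 567 and 694) lay above them. Orc6 was lower in old kTreg than in old rTreg cells (log2 fold change −0.69, SE 0.21, adjusted p = 0.0352), the only call in this class over the 9 comparisons between groups. Cdc6, which loads the helicase with CDT1, had 855 ± 187 (SD, n = 4) in old rTreg, 285 ± 43.3 in old aTreg and 368 ± 199 in young rTreg cells, and its old rTreg libraries lay above all libraries of both. No comparison of Cdc6 passed the test (SE 1.25 in each), and young kTreg replicate 4 listed it at 0. Cdt1, the other loading factor, varied little, from a mean of 739 ± 31.6 in young kTreg to 947 ± 235 in old rTreg cells.

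All 6 subunits of the MCM helicase, the motor that unwinds DNA at the fork, had their highest mean in old rTreg cells. Mcm2 (ENSMUSG00000002870, chr6:88860452-88875762) had 2583, 3294, 1894 and 2574 normalized reads in young rTreg and 3678, 3870.1, 3569 and 5347 in old rTreg libraries. In aTreg libraries it had 2602, 2862, 2915 and 3659 (young) and 2943, 2190.1, 2973 and 2514 (old). In kTreg libraries it had 3312, 2602, 2779.6 and 1603 (young) and 2877, 2226, 2135 and 2373 (old). Every old rTreg library was above every library of young rTreg, old aTreg and old kTreg cells, with replicate 4 far above the other 3, and the groups of the remaining comparisons overlapped. Mcm2 was higher in old than in young rTreg cells (log2 fold change 0.68, SE 0.20, adjusted p = 0.0392). It was lower in old kTreg than in old rTreg cells (log2 fold change −0.77, SE 0.20, adjusted p = 0.0145). Old aTreg cells also had less of it than old rTreg cells (log2 fold change −0.62, SE 0.20, adjusted p = 0.0454). The first and the last of these calls did not hold without old rTreg replicate 4, where the log2 fold changes were 0.55 and −0.49 and the adjusted p 0.117 and 0.151, within ranges of 0.0033 to 0.213 and 0.0194 to 0.285 over all alternatives tried. Old and young cells did not differ past the test in aTreg (log2 fold change −0.18, SE 0.20, adjusted p = 0.852) or kTreg cells (log2 fold change −0.06, SE 0.20, adjusted p = 0.895).

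Mcm7 (ENSMUSG00000029730, chr5:138162844-138170684) had 3892, 4517, 4791 and 3856 in old rTreg, 2549, 2544, 2813 and 2655 in old aTreg and 2948, 2174, 2654 and 2603 in old kTreg libraries. The old aTreg and old kTreg libraries all lay below the old rTreg libraries, and the old aTreg libraries also lay below the young aTreg libraries (2905, 3153, 2920.1 and 3563). Young rTreg libraries had 3658, 3872, 2804 and 2768 and young kTreg libraries 3905, 2562, 2771 and 2757, which overlapped. Mcm7 was lower in old kTreg (log2 fold change −0.72, SE 0.14, adjusted p = 0.00159) and in old aTreg (log2 fold change −0.69, SE 0.14, adjusted p = 0.0024) than in old rTreg cells. Among the other subunits, Mcm5 had 5928 ± 837 (SD, n = 4) in old rTreg, 2967 ± 276 in old aTreg and 2985 ± 405 in old kTreg cells, a fold change of −0.99 on the log2 scale for aTreg cells (SE 0.20, adjusted p = 0.00258). Mcm3 fell by 0.95 on the log2 scale in old aTreg and in old kTreg against old rTreg cells. Mcm6 was the 1 subunit called higher in young kTreg than in young rTreg cells, 8399 ± 961 against 5168 ± 1293, with no overlap between the libraries (log2 fold change 0.73, SE 0.16, adjusted p = 0.00241). Reads of Mcm7 may be shared with the overlapping genes Cops6 and Ap4m1 on the opposite strand, since the strand setting of the count is not given in the sources used here, and the same holds for Orc6 (Vps35), Cdc45 (Ufd1), Lig1 (Zswim9), Ccne1 (1600014C10Rik), Rfc4 (Eif4a2), Rfc5 (Wsb2) and Tk1 (Syngr2 and Afmid).

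Among the genes of helicase activation, Dbf4 (ENSMUSG00000002297, chr5:8445717-8472796), the regulatory subunit of the CDC7 kinase that triggers origin firing, had 743, 695, 573 and 585 in young rTreg and 946, 754, 835 and 786 in old rTreg libraries. The values were 401, 563, 559 and 424 in old aTreg and 514, 651, 499.8 and 450.3 in old kTreg libraries. Each old rTreg library was above all of the libraries in these other 3 groups. In young mice, kTreg libraries had 1021, 563, 660.1 and 835 and aTreg libraries 441, 523, 571 and 450.4, which overlapped only at the lowest kTreg value. Dbf4 was higher in young kTreg than in young aTreg cells (log2 fold change 0.60, SE 0.18, adjusted p = 0.041). Of 24 alternatives tried, this call was kept in 12 (adjusted p up to 0.262). Dbf4 was lower in old aTreg (log2 fold change −0.78, SE 0.18, adjusted p = 0.00748) and in old kTreg (log2 fold change −0.66, SE 0.18, adjusted p = 0.0221) than in old rTreg cells. Its difference between old and young rTreg cells was not called (log2 fold change 0.36, SE 0.18, adjusted p = 0.251). Cdc45, part of the active helicase, had 851 ± 221 in old rTreg and 359.5 ± 40.9 in old aTreg cells (log2 fold change −1.21, SE 0.29, adjusted p = 0.00989). Mcm10, a helicase activator, had 488 ± 47.4 in old rTreg against 193 ± 167 in young rTreg cells with no overlap, yet was called in none of the 9 comparisons, its SE being 1.20 with 1 library at 0. Gins4, a GINS subunit, had 1173 ± 76.7 in young kTreg and 1611 ± 235 in young rTreg libraries with no overlap, and did not differ past the test between old aTreg and old rTreg cells (log2 fold change 0.03, SE 0.12, adjusted p = 0.914).

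Of the polymerases, Pole (ENSMUSG00000007080, chr5:110434172-110486287), the catalytic subunit of the leading-strand polymerase, differed most. Young rTreg libraries had 202, 374, 111 and 146 and old rTreg libraries 479.6, 636, 787 and 801. The old aTreg libraries had 175, 173, 157 and 148 and the old kTreg libraries 287, 284, 218 and 171. In young mice Pole had 164, 168, 206 and 197 in aTreg and 426, 312, 244 and 190.4 in kTreg libraries. The lowest old rTreg library was above every other library of the data set. Pole was higher in old than in young rTreg cells (log2 fold change 1.82, SE 0.31, adjusted p = 0.000664). Against old rTreg cells it was lower in old aTreg (log2 fold change −2.02, SE 0.31, adjusted p = 0.000184) and old kTreg cells (log2 fold change −1.49, SE 0.31, adjusted p = 0.00302). Pold1, the catalytic subunit of the lagging-strand polymerase, was also higher in old than in young rTreg cells, 2601 ± 331 against 1473 ± 364 (log2 fold change 0.84, SE 0.17, adjusted p = 0.0036). Its level in old kTreg libraries (1868 ± 193) lay between those of old rTreg and old aTreg libraries (1454 ± 156) with no overlap on either side. Primase subunit 1 (Prim1) was lower in old kTreg (514 ± 58.0) than in old rTreg cells (1063 ± 130.1, log2 fold change −1.05, SE 0.20, adjusted p = 0.00159). Prim2, the other primase subunit, had 399.6 ± 67.0 in old rTreg, 444 ± 99.1 in young rTreg and 285 ± 91.4 in old kTreg cells and was called in no comparison. Pola1, the catalytic subunit of polymerase alpha, had a wide spread, with 404 ± 278 in old rTreg cells, and was called in none.

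Pcna (ENSMUSG00000027342, chr2:132091082-132095234) encodes the sliding clamp that holds polymerases on DNA. It had 4972, 4211, 4169.8 and 3061 in young rTreg and 4249, 4570.4, 5675 and 5107 in old rTreg libraries. In aTreg libraries it had 3857, 2496, 3558 and 3115 (young) and 3963, 5549, 3494 and 3825 (old). In kTreg libraries it had 4235, 2723, 3109 and 3959 (young) and 2906, 2805, 3024 and 2981 (old). Old kTreg libraries lay within a narrow range that was below all old aTreg and all old rTreg libraries, and the groups of the remaining comparisons overlapped. Pcna was lower in old kTreg than in old rTreg cells (log2 fold change −0.73, SE 0.17, adjusted p = 0.00757), and this was its only call. Its difference between old and young rTreg cells was not called (log2 fold change 0.27, SE 0.17, adjusted p = 0.381), and the difference between old kTreg and old aTreg cells missed it (log2 fold change −0.50, SE 0.17, adjusted p = 0.132). A listed processed pseudogene, Pcna-ps2, can share reads with Pcna. Of the clamp loader, Rfc4 and Rfc5 were lower in old kTreg than in old rTreg cells. The values were log2 fold change −0.70, SE 0.20, adjusted p = 0.0309 for Rfc4 and −0.64, SE 0.18, adjusted p = 0.0243 for Rfc5. Rfc3 was called nowhere.

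Lig1 (ENSMUSG00000056394, chr7:13011239-13045350), the ligase that seals Okazaki fragments, had 1191, 1746, 767 and 773 in young rTreg and 2193, 2051, 1702 and 2448 in old rTreg libraries. In aTreg libraries the values were 832, 802, 829.5 and 909 (young) and 776, 873, 1119.9 and 936 (old). In kTreg libraries they were 1958, 1260.3, 1275 and 1582 (young) and 1181, 1268, 1370 and 1259 (old). At both ages all kTreg libraries were above all aTreg libraries, and in old mice all rTreg libraries were above both. Lig1 was higher in young kTreg than in young aTreg cells (log2 fold change 0.83, SE 0.20, adjusted p = 0.0134), but the same difference in old mice missed the test (log2 fold change 0.47, SE 0.20, adjusted p = 0.254). It was higher in old than in young rTreg cells (log2 fold change 0.98, SE 0.20, adjusted p = 0.0046). In old mice it was lower in aTreg than in rTreg cells (log2 fold change −1.18, SE 0.20, adjusted p = 0.000685). Fen1, which trims the flaps of these fragments, had 249 ± 40.6 in old rTreg, 159 ± 18.2 in old aTreg and 150.5 ± 25.5 in old kTreg cells, with no overlap between old rTreg and the other 2, and passed the test in no comparison.

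Claspin (Clspn, ENSMUSG00000042489, chr4:126450728-126489576), an adaptor of the replication checkpoint, varied widely between libraries. It had 139, 230.4, 69.9 and 49.2 in young rTreg and 261, 146, 455 and 386 in old rTreg libraries. Young aTreg libraries had 55.7, 44.4, 61.1 and 30.3 and young kTreg libraries 285, 100.4, 117 and 182. Old aTreg libraries had 58.1, 96.1, 59.8 and 83.3 and old kTreg libraries 94.3, 84.7, 89.5 and 60.4. Old rTreg libraries were above all old aTreg and old kTreg libraries, young kTreg libraries above all young aTreg libraries, and the young and old rTreg libraries overlapped. Its differences came with wide errors, with log2 fold change −1.96, SE 0.45, adjusted p = 0.00705 for old aTreg and log2 fold change −1.81, SE 0.45, adjusted p = 0.012 for old kTreg against old rTreg cells. It was also higher (log2 fold change 1.74, SE 0.45, adjusted p = 0.0174) in young kTreg than in young aTreg cells. Rpa2, which coats single-stranded DNA, had means from 1511 ± 183 in old kTreg to 2104 ± 393 in old rTreg cells and was called in no comparison.

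Nucleotide supply held the member called in the most comparisons, 6 of the 9 between groups. Rrm2 (ENSMUSG00000020649, chr12:24757811-24764145), the S-phase subunit of ribonucleotide reductase, had 2777, 3184, 1305 and 1120.2 in young rTreg and 4463, 4705, 5792 and 4322 in old rTreg libraries. Its aTreg libraries had 1609.7, 1144, 1513 and 1616 (young) and 1297, 1507, 1371 and 1305 (old). Its kTreg libraries had 6252, 2931, 4095 and 3664 (young) and 2159, 1732, 2143 and 1730.2 (old). The aTreg libraries were low at both ages, all kTreg libraries were above all aTreg libraries of the same age, and the old kTreg libraries were below all young kTreg libraries. Young kTreg libraries were high, replicate 1 above the rest, and overlapped young rTreg libraries only at 1 value (replicate 2 of each). Rrm2 was higher in young kTreg than in young aTreg (log2 fold change 1.48, SE 0.26, adjusted p = 0.000876) and young rTreg cells (log2 fold change 1.10, SE 0.26, adjusted p = 0.00422). In old against young mice it was higher in rTreg cells (log2 fold change 1.34, SE 0.26, adjusted p = 0.00255) and lower in kTreg cells (log2 fold change −1.08, SE 0.26, adjusted p = 0.0392). In old mice it was lower in aTreg (log2 fold change −1.81, SE 0.26, adjusted p = 1e-04) and kTreg cells (log2 fold change −1.31, SE 0.26, adjusted p = 0.00222) than in rTreg cells. Rrm1, its partner subunit, was higher in old than in young rTreg cells, 4478 ± 413 against 2484 ± 1246 (log2 fold change 0.97, SE 0.24, adjusted p = 0.0174). Thymidylate synthase (Tyms) and thymidine kinase 1 (Tk1) were lower in old aTreg than in old rTreg cells, with log2 fold changes of −0.93 (SE 0.26, adjusted p = 0.0255) and −1.20 (SE 0.38, adjusted p = 0.0467). Of 24 alternatives tried, the call of Tyms was kept in 15 (adjusted p up to 0.151) and that of Tk1 in 10 (up to 0.227).

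**Figure D2:**
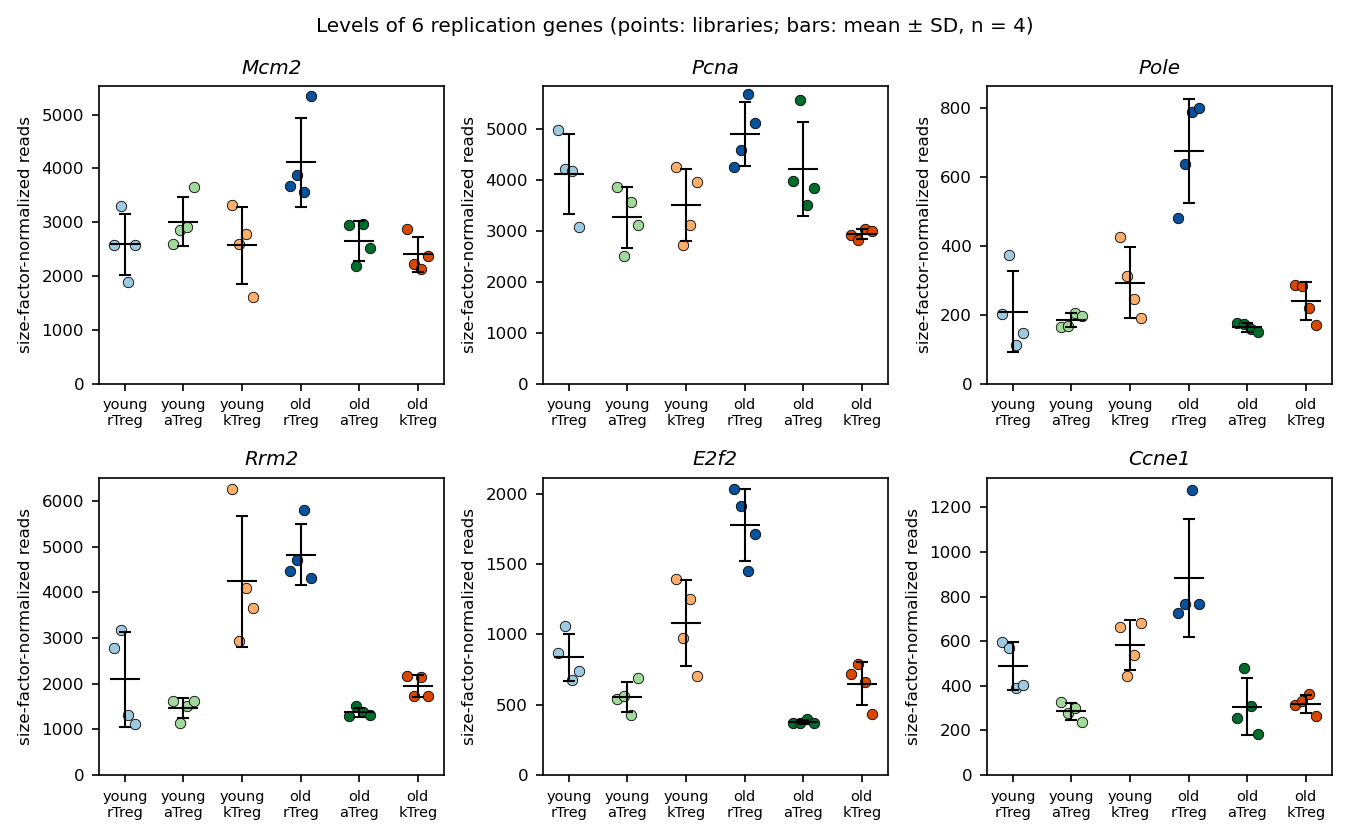
Levels of Mcm2, Pcna, Pole, Rrm2, E2f2 and Ccne1 in size-factor-normalized reads (vertical axes, from 0) in the 6 groups, with a point for each library and bars for the mean ± SD (n = 4). In each of the 6 panels the mean is highest in old rTreg cells, Pole shows the clearest gap to all other groups, and young kTreg cells come next for Rrm2, E2f2 and Ccne1.

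Chaf1b (ENSMUSG00000022945, chr16:93680768-93703003), a subunit of the chromatin assembly factor that places histones on new DNA, had 1095, 1071, 835 and 1110.5 in old rTreg, 481, 565, 559.5 and 488 in old aTreg and 647, 503, 657 and 503 in old kTreg libraries. Young libraries had 1014, 966, 614 and 548 in rTreg, 731, 525, 516 and 717 in aTreg and 1123, 681, 828 and 772 in kTreg cells. The old aTreg and old kTreg libraries all lay below the old rTreg libraries, whose replicate 3 was the lowest, and the old kTreg libraries also lay below all young kTreg libraries. Chaf1b was lower in old aTreg (log2 fold change −0.97, SE 0.20, adjusted p = 0.0035) and old kTreg (log2 fold change −0.83, SE 0.20, adjusted p = 0.00989) than in old rTreg cells. Slbp, which binds the stem-loop of histone mRNAs, was the member least changed between old kTreg and old rTreg cells (log2 fold change −0.04, SE 0.15, adjusted p = 0.895). Its young kTreg libraries (4694 ± 522) were above all young rTreg (3509 ± 718) and young aTreg libraries (3197 ± 529).

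The G1/S regulators had the lowest class medians in old aTreg (−1.43) and old kTreg (−1.34) against old rTreg cells. E2f2 (ENSMUSG00000018983, chr4:135899585-135923368), an activator of the E2F family, had 869, 1061, 679 and 737 in young rTreg and 2032, 1917, 1451 and 1712 in old rTreg libraries. In aTreg libraries it had 539, 565, 428 and 689 (young) and 369.8, 373, 397 and 368 (old). In kTreg libraries it had 1393, 975, 1255 and 705 (young) and 718, 791, 659 and 436 (old). At both ages all kTreg libraries lay above all aTreg libraries, old rTreg libraries lay above all old libraries of the other subsets and all young rTreg libraries, and the 4 old aTreg libraries lay close together below all young aTreg libraries. E2f2 was lower in old aTreg than in old rTreg cells (log2 fold change −2.22, SE 0.21, adjusted p = 9.54e-07), the smallest p of any member in the 12 tests. It was lower in old kTreg than in old rTreg cells (log2 fold change −1.47, SE 0.21, adjusted p = 0.000107). Old rTreg cells had more of it than young rTreg cells (log2 fold change 1.10, SE 0.21, adjusted p = 0.00241). In young mice it was higher in kTreg than in aTreg cells (log2 fold change 0.93, SE 0.21, adjusted p = 0.00717), and in old mice that difference was 0.75 on the log2 scale (SE 0.21, adjusted p = 0.0626). Cyclin E1 (Ccne1), which with CDK2 starts S phase, had 884 ± 264 in old rTreg, 307 ± 127 in old aTreg and 318 ± 40.4 in old kTreg cells. Its log2 fold changes against old rTreg cells were −1.57 in aTreg (SE 0.25, adjusted p = 0.000295) and −1.44 in kTreg cells (SE 0.25, adjusted p = 0.00072). E2f1, another activator, was higher in old than in young rTreg cells (530.2 ± 201.2 against 234 ± 115, log2 fold change 1.23, SE 0.35, adjusted p = 0.0382), and the other cyclin E gene, Ccne2, was called in no comparison. Of 28 alternatives tried, the call of E2f1 was kept in 15 (adjusted p up to 0.19).

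Old against young rTreg cells asks how the replication genes of the resting subset differ between old and young mice. 14 of the 46 members (30.4%) were higher in old mice and none was lower, where 4.12% of all genes tested were called higher and 1.71% lower. They included 4 of the 6 MCM subunits (Mcm2, Mcm3, Mcm5 and Mcm6), 3 of the 4 G1/S regulators (E2f1, E2f2 and Ccne1), 3 of 7 polymerase and primase genes (Pole, Pold1 and Prim1), Rrm1 and Rrm2 of ribonucleotide reductase, Lig1 and Rfc5, and no gene of origin licensing or helicase activation. In those last 2 classes Orc1, Cdc6, Mcm10 and Gins1 were listed at 0 in young kTreg replicate 4, a library outside this comparison. The errors of these 4 genes were wide in all comparisons, which leaves little room for a call. Old rTreg libraries of Cdc6 and Mcm10 lay above all young rTreg libraries, and those of Orc1 and Gins1 overlapped them. The median log2 fold change was 0.62 over the members and −0.08 over all genes. 44 members were above 0, and the member furthest the other way was Prim2 (log2 fold change −0.14, SE 0.22, adjusted p = 0.772). The libraries did not overlap in 11 members, all higher in old mice, where 6.61% of genes tested were higher and 5.05% lower without overlap. Of 57 other replication genes 6 were higher and none lower, among them Ccna2 (cyclin A2, log2 fold change 1.73, SE 0.35, adjusted p = 0.00346) and Uhrf1, a factor of DNA methylation at forks (log2 fold change 1.30, SE 0.29, adjusted p = 0.00779). Of 20 G2/M and mitosis genes 17 were higher, with a median of 1.54, for example the mitotic motor Kif11 (log2 fold change 1.96, SE 0.38, adjusted p = 0.00229). Of 28 alternatives tried, the calls of Ccne1 and Prim1 were kept in 12, those of Mcm2 and Rfc5 in 13 and that of E2f1 in 15. Counts of members under alternatives, here and below, are given without the share of all genes called under the same alternative. Whether they moved with that share is not shown. The count of members was 3 with only the 2 groups compared in the model, 7 with upper quartile rescaling and 9 with edgeR. It was 7 without young rTreg replicate 3, 8 without young rTreg replicate 4 and 5 without all libraries of young mouse 3. It was 24 without the libraries of young mouse 2 and young kTreg replicate 4, and 9 without old rTreg replicates 2 and 3, which held neutrophil marker sums of 5608 and 9086 against 244.3 and 148.6 in old rTreg replicates 1 and 4. Marker sums of basophils and mast cells, granulocyte precursors, macrophages, dendritic cells, plasma cells, platelets and NK cells were also higher in old rTreg libraries. Without overlap, 7 of 7 basophil and mast cell genes and 3 of 4 NK cell genes were higher than in young rTreg libraries. So were 2 of 4 plasma cell, 2 of 7 granulocyte precursor, 1 of 8 macrophage, 1 of 3 platelet and 0 of 5 dendritic cell genes. Mean levels of C1qa, C1qb, C1qc, Fcgr1, Mzb1 and Siglech were lower in old rTreg cells.

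**Figure D3:**
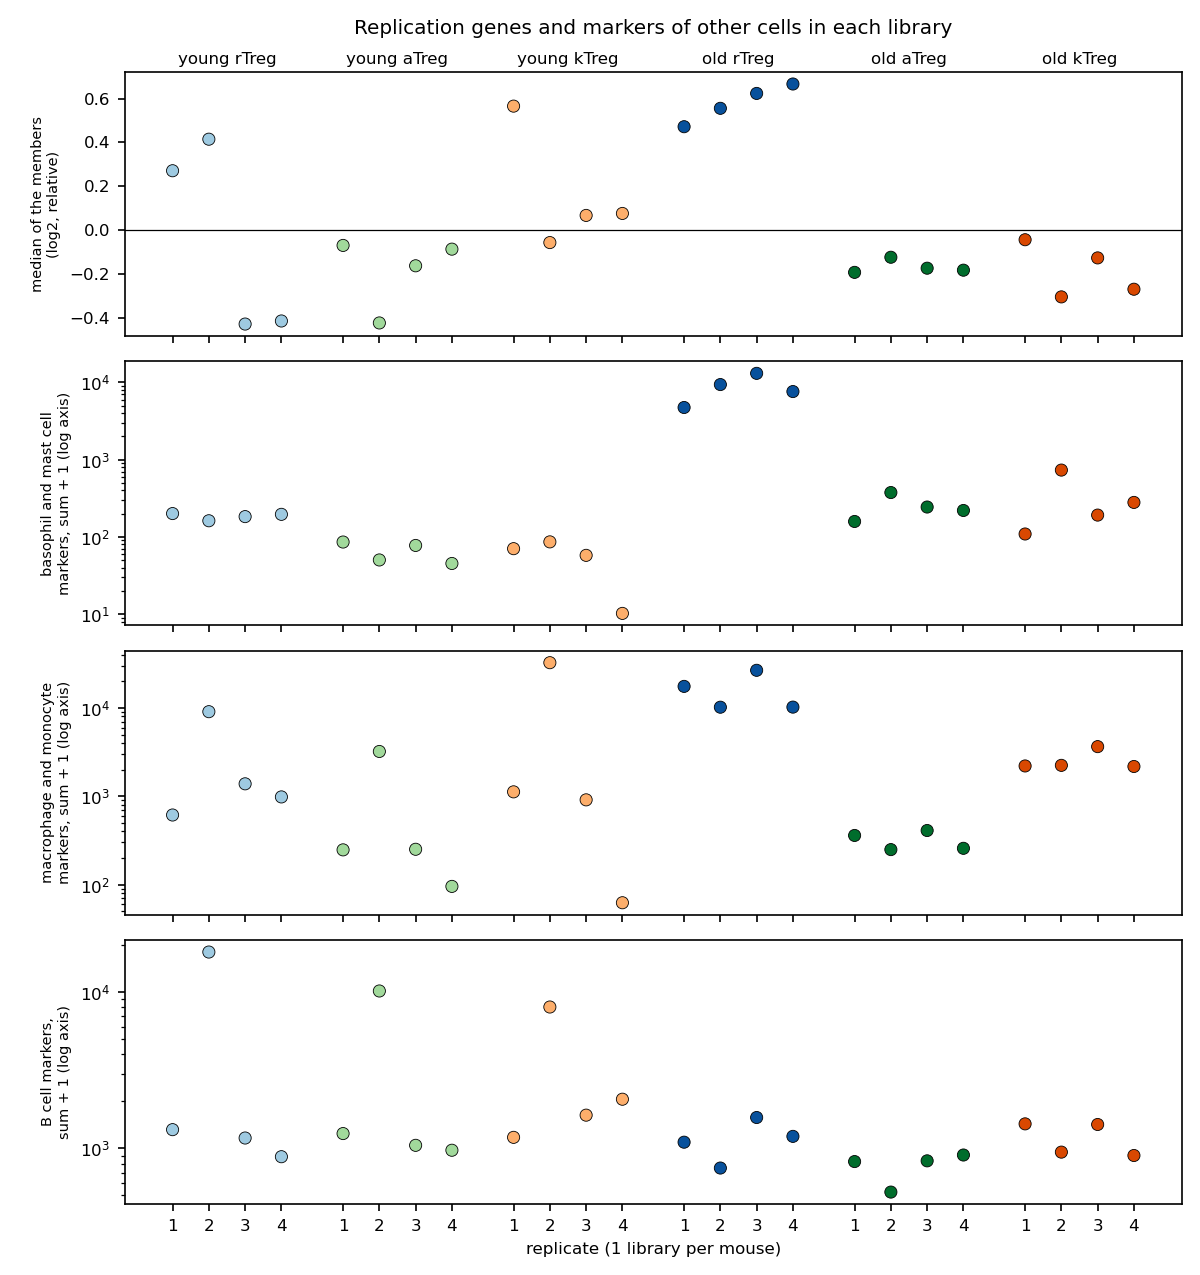
Median of the 46 members in each library, relative to the mean of each gene over all libraries on the log2 scale (top), and the summed markers of basophils and mast cells, of macrophages and monocytes, and of B cells in normalized reads plus 1 (log axes), by group and replicate. The 4 old rTreg libraries have the 4 highest basophil and mast cell sums, 4736 to 13120, and members' medians from 0.472 to 0.667, and the B cell sums of 8046 to 18104 belong to young mouse 2.

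In aTreg cells none of the members differed between old and young mice past the test. limma called 0 of 46, where 1.85% of genes tested were called higher and 0.86% lower. edgeR and DESeq2 also called 0, and 2 members had an unadjusted p below 0.05. The median log2 fold change was −0.04 over the members and 0.01 over all genes, and the member furthest the other way was Clspn (log2 fold change 0.64, SE 0.45, adjusted p = 0.673). The libraries did not overlap in 7 members, of which 1 was higher in old mice (7.63% of genes tested) and 6 lower (5.81%): Cdt1 was higher, and Mcm3, Mcm7, Mcm10, Pola2, E2f2 and Ccne2 were lower. None of the 57 other replication genes and none of the 20 G2/M genes was called, and the G2/M median was 0.26.

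In kTreg cells 1 member, Rrm2 (2.17% of the members), was lower in old than in young mice past the test. Of all genes tested 0.235% were called lower and 1.02% higher. The median log2 fold change was −0.26 over the members and 0.12 over all genes. 34 members were below 0, and the member furthest above was Cdc6 (log2 fold change 1.35, SE 1.25, adjusted p = 0.59), listed at 0 in young kTreg replicate 4. The libraries did not overlap in 8 members: Cdt1 was higher in old mice (6.57% of genes tested), and Orc6, Pole2, Clspn, Rrm2, Chaf1b, Slbp and Ccne1 were lower (3.88%). 1 of the G2/M genes was called lower, the spindle checkpoint kinase Bub1b (log2 fold change −1.43, SE 0.35, adjusted p = 0.0408), and the G2/M median was −1.09. The call of Rrm2 was lost without young kTreg replicate 1 or 3, without any 1 of the 4 old kTreg libraries and without any 1 of old mice 1 to 4 or young mice 1 and 3 (adjusted p from 0.00213 to 0.168 over all alternatives tried). DESeq2 called 4 members, and with upper quartile rescaling or with only the 2 groups compared 0 were called. The count of members was 2 without young kTreg replicate 4, young mouse 2 or young mouse 4, and 3 without both young mouse 2 and young kTreg replicate 4.

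In old mice, kTreg against rTreg cells compares the KLRG1+ with the resting subset. Here 21 of the 46 members (45.7%) were lower in kTreg cells and none was higher, where 3.09% of all genes tested were called lower and 5.77% higher. The calls fell in every class, with 4 MCM subunits (Mcm2, Mcm3, Mcm5 and Mcm7), 3 clamp and loader genes (Pcna, Rfc4 and Rfc5), 3 polymerase and primase genes (Prim1, Pole and Pole2), 3 nucleotide genes (Rrm1, Rrm2 and Dut) and 3 G1/S regulators (E2f1, E2f2 and Ccne1). The median log2 fold change was −0.74 over the members and 0.10 over all genes, and all 46 members were below 0, Slbp the least. The libraries did not overlap in 30 members, all lower in kTreg cells, where 7.65% of genes tested were lower and 8.95% higher without overlap. In all 4 mice 37 members were lower in kTreg than in rTreg cells of the same mouse. The share of all genes tested with this pattern was not counted, so the 37 cannot be set against it. Of the 57 other replication genes 12 were lower, among them the histone chaperone Asf1b (log2 fold change −1.51, SE 0.26, adjusted p = 0.000552). Of the 20 G2/M genes 17 were lower (median −1.49), led by the mitotic kinase Aurka (log2 fold change −1.78, SE 0.35, adjusted p = 0.00193). With upper quartile rescaling 9 members were called. The call of Dut was kept in 8 of 24 alternatives. Leaving out all libraries of old mouse 3 left 12 members called and of old mouse 4 left 7, and leaving out old rTreg replicates 2 and 3 left 17. Basophil and mast cell marker sums were 107.9 to 731.7 in the old kTreg and 4736 to 13120 in the old rTreg libraries, and macrophage sums 2171 to 3644 and 10180 to 26650. By gene, 7 of 7 basophil and mast cell markers but 1 of 8 macrophage markers were higher in old rTreg libraries without overlap. Mean levels of C1qa, C1qb and C1qc were lower in old rTreg than in old kTreg cells, and those of the other macrophage markers higher.

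Old aTreg against old rTreg cells sets activated beside resting cells in old mice. 22 of the 46 members (47.8%) were lower in aTreg cells and none was higher, where 3.78% of genes tested were called lower and 4.82% higher. They took in 5 of the 6 MCM subunits (all but Mcm6), 5 polymerase and primase genes (Pola2, Prim1, Pole, Pole2 and Pold1), 4 of 5 nucleotide genes (Rrm1, Rrm2, Tyms and Tk1), both Dbf4 and Cdc45, E2f2 and Ccne1, and no gene of origin licensing. Orc1 and Cdc6 of that last class had wide errors, with a value of 0 in young kTreg replicate 4, a library outside this comparison. The median log2 fold change was −0.73 over the members and 0.11 over all genes, 45 members were below 0, and the 1 above was Gins4. Libraries of the groups were apart in 25 members, all lower in aTreg cells (7.16% of genes tested, with 8.23% higher), and 29 members were lower in aTreg cells in all 4 mice. For the 29, the share of all genes tested was not counted. All 20 G2/M genes were lower (median −2.13), for example Aurka (log2 fold change −2.41, SE 0.35, adjusted p = 1e-04). So were 9 of the 57 other replication genes, for example Ccna2 (log2 fold change −2.36, SE 0.35, adjusted p = 0.000129). The count of members was 14 with upper quartile rescaling and 18 without old aTreg replicate 2. It was 13 without all libraries of old mouse 1, 10 without those of old mouse 4 and 16 without old rTreg replicates 2 and 3. Macrophage marker sums were 247.9 to 408.4 in the old aTreg libraries, against 10180 to 26650 in the old rTreg libraries. By gene, 3 of the 8 macrophage markers were higher in old rTreg libraries without overlap. Both comparisons within old mice share the old rTreg libraries, and so does the comparison of the ages in rTreg cells.

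**Figure D4:**
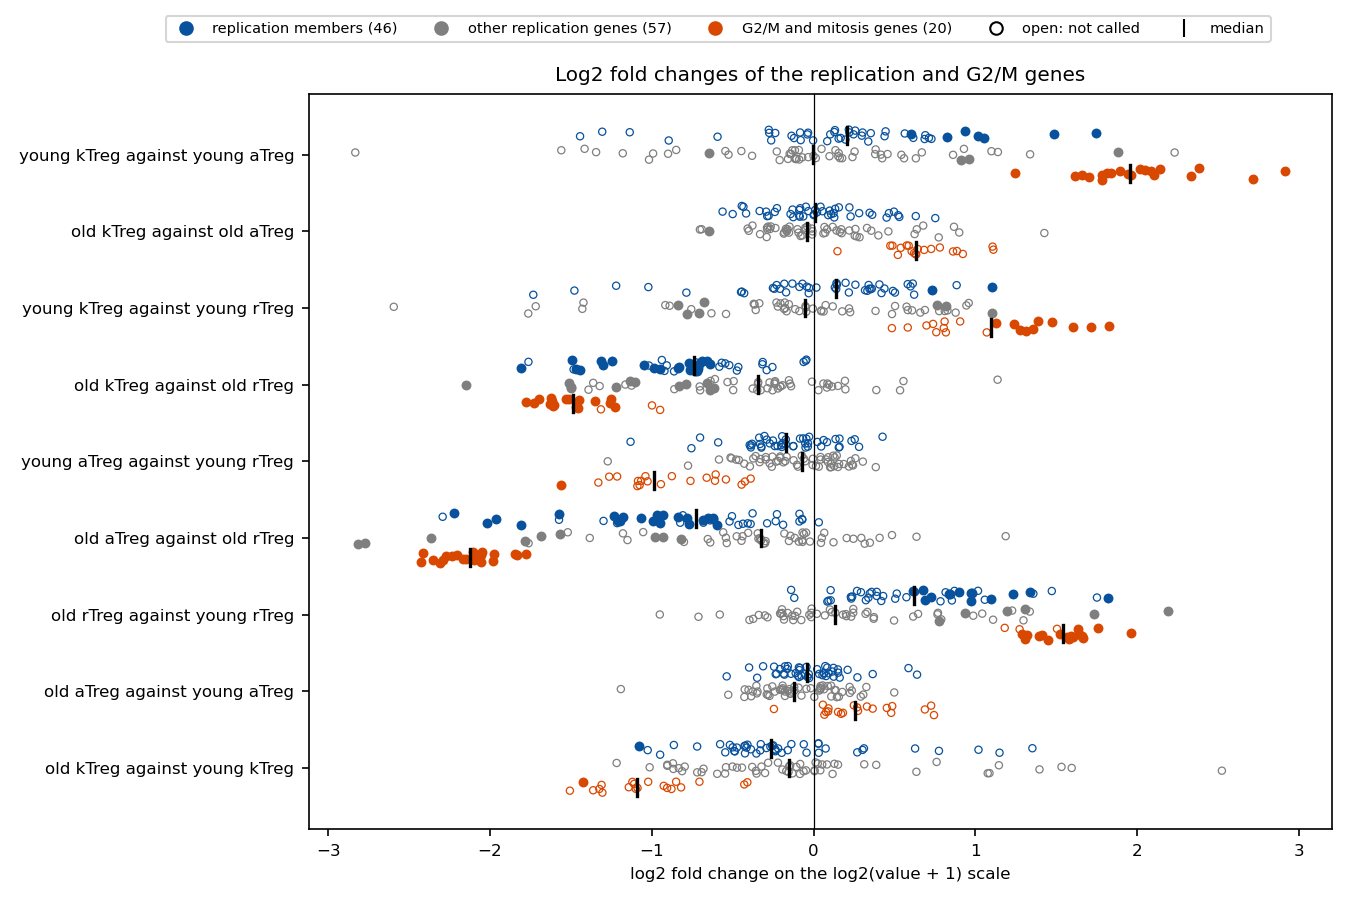
Log2 fold changes (horizontal axis, log2(value + 1) scale) of the 46 members, 57 other replication genes and 20 G2/M and mitosis genes in the 9 comparisons between groups, with filled points for called genes and a bar at the median of each list. The members lie to the left of 0 in old kTreg and old aTreg against old rTreg cells (medians −0.74 and −0.73) and to the right in old against young rTreg cells (median 0.62), with the G2/M genes further out on the same side.

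In old mice kTreg and aTreg cells did not differ in these genes past the test. limma called 0 of 46 members, where 1.33% of genes tested were called higher and 0.866% lower. edgeR called 0, DESeq2 called 1, and 5 members had an unadjusted p below 0.05. Median log2 fold changes were 0.01 over the members and 0.01 over all genes. Mcm2 had a log2 fold change of −0.14 (SE 0.20, adjusted p = 0.834), and E2f1 lay furthest below with −0.56 (SE 0.35, adjusted p = 0.473). The libraries did not overlap in 7 members: Pold1, Lig1, Rrm2, E2f2 and Ccne2 were higher in kTreg cells (11.4% of genes tested) and Pcna and Tipin, a fork protection factor, lower (9.78%). None of the 20 G2/M genes was called (median 0.63), and 1 of the 57 other replication genes was lower, the polymerase subunit Pole4 (log2 fold change −0.65, SE 0.17, adjusted p = 0.0434). Without old kTreg replicate 4, 1 member was called.

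In young mice kTreg cells had more of these mRNAs than aTreg cells in 7 of the 46 members (15.2%), where 3.46% of all genes tested were called higher, and none was lower (3.49%). They were Rrm2, E2f2, Ccne1 (log2 fold change 1.01, SE 0.25, adjusted p = 0.0133), Lig1, Clspn, Pole2 (log2 fold change 1.05, SE 0.31, adjusted p = 0.0405) and Dbf4, from 6 of the 10 classes, with no MCM subunit among them. Of 24 alternatives tried, the call of Pole2 was kept in 11 (adjusted p up to 0.224) and that of Dbf4 in 12 (up to 0.262). Mcm2 had a log2 fold change of −0.26 (SE 0.20, adjusted p = 0.444) and Pcna 0.10 (SE 0.17, adjusted p = 0.762). Over all members the median log2 fold change was 0.21, against −0.12 over all genes, and the member furthest the other way was Gins1 (log2 fold change −1.44, adjusted p = 0.417), which young kTreg replicate 4 listed at 0. The libraries did not overlap in 9 members, 8 of them higher in kTreg cells (6.67% of genes tested) and 1, Gins4, lower (7.99%). All 20 G2/M genes were called higher (median 1.95), for example Kif11 (log2 fold change 2.92, SE 0.38, adjusted p = 4.42e-05) and the kinetochore protein gene Cenpf (log2 fold change 2.71, SE 0.42, adjusted p = 0.000298). Of the 57 other replication genes 3 were higher (Ccna2, Asf1b and Uhrf1) and 1 was lower, the polymerase subunit Pold2 (log2 fold change −0.65, SE 0.12, adjusted p = 0.00173). The count was 3 with only the 2 groups compared in the model. It was 3 without young kTreg replicate 1, 1 without all libraries of young mouse 1 and 4 without those of young mouse 3, and 7 without both young mouse 2 and young kTreg replicate 4.

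Young kTreg against young rTreg cells gave 2 calls among the members (4.35%), Mcm6 and Rrm2, both higher in kTreg cells, where 8.24% of genes tested were called higher and 7.56% lower, so that the share was below that of all genes. Mcm2 had a log2 fold change of −0.03 (SE 0.20, adjusted p = 0.938) and Pcna −0.23 (SE 0.17, adjusted p = 0.374). The median over the members was 0.14 and over all genes −0.14, and with the libraries rescaled to equal upper quartiles the members' median was −0.03 and that of all genes −0.30. The member furthest the other way was Gins1 (log2 fold change −1.73, adjusted p = 0.254), which young kTreg replicate 4 listed at 0. Its group means were 113.3 in young kTreg and 151.6 in young rTreg cells. Non-overlapping libraries were found in 3 members, Mcm6 and Slbp higher (10.3% of genes tested) and Gins4 lower (11.6%). Of the G2/M genes 10 of 20 were higher and none lower (median 1.10), and of the other replication genes 3 were higher and 4 lower. The count of members was 1 with only the 2 groups compared in the model. It was 6 without young rTreg replicate 2, 1 without young rTreg replicate 3, 5 without young kTreg replicate 4, 8 without young mouse 2 and 1 without young mouse 3. It was 13 without both young mouse 2 and young kTreg replicate 4.

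For young aTreg against young rTreg cells limma called 0 of 46 members, where 2.71% of genes tested were called higher and 0.637% lower. edgeR also called 0 and DESeq2 2, and 6 members had an unadjusted p below 0.05. The median log2 fold change was −0.17 over the members and 0.02 over all genes. The members' median was 0.03 without young rTreg replicate 2 and 0.07 without all libraries of young mouse 2. Mcm2 had a log2 fold change of 0.23 (SE 0.20, adjusted p = 0.714), Pcna −0.33 (SE 0.17, adjusted p = 0.415) and the member furthest the other way was Mcm6 (log2 fold change 0.43, SE 0.16, adjusted p = 0.182). Dbf4 and Ccne1 were lower in all 4 young aTreg libraries than in any young rTreg library (5.05% of genes tested) and no member was higher without overlap (8.41%). 1 of the G2/M genes was lower, the ubiquitin-conjugating enzyme gene Ube2c (log2 fold change −1.56, SE 0.42, adjusted p = 0.0358).

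Whether the subsets differ to another extent in old than in young mice was tested as a difference of the differences. For kTreg against rTreg cells 13 members (28.3%) had a lower difference in old mice and none a higher one, where 2.03% of genes tested were called lower and 0.998% higher. Rrm2 was 1.10 higher on the log2 scale in young kTreg than in young rTreg cells and 1.31 lower in old kTreg than in old rTreg cells, a difference of −2.41 (SE 0.37, adjusted p = 0.00112). The other 12 were Mcm3, Mcm4, Mcm5, Mcm6, Prim1, Pole, Pole2, Lig1, Clspn, Rrm1, E2f2 (−1.82, SE 0.30, adjusted p = 0.00182) and Ccne1. Mcm2 (−0.74, SE 0.28, adjusted p = 0.158) and Pcna (−0.51, SE 0.24, adjusted p = 0.281) were not among them. Of 37 alternatives tried, the calls of Mcm4 and Pole2 were each kept in 16 (adjusted p up to 0.184 and 0.125). That of Clspn was kept in 19 (up to 0.164), those of Mcm3, Rrm2 and E2f2 in all 37, and the others in 25 to 36. Gins1, listed at 0 in young kTreg replicate 4, lay furthest the other way (0.81, adjusted p = 0.802). The median difference was −0.76 over the members and 0.21 over all genes. 18 of the 20 G2/M genes (median −2.53) and 8 of the 57 other replication genes had a lower difference in old mice. The count of members was 5 with upper quartile rescaling and 7 with only the groups compared in the model. It was 20 without young rTreg replicate 2 and 7 without young rTreg replicate 3 or 4. It was 8 without old mouse 1, 5 without old mouse 4, 7 without young mouse 1 and 3 without young mouse 3. It was 26 without both young mouse 2 and young kTreg replicate 4, and 11 without old rTreg replicates 2 and 3. The old rTreg libraries with their markers of other cells enter this difference.

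**Figure D5:**
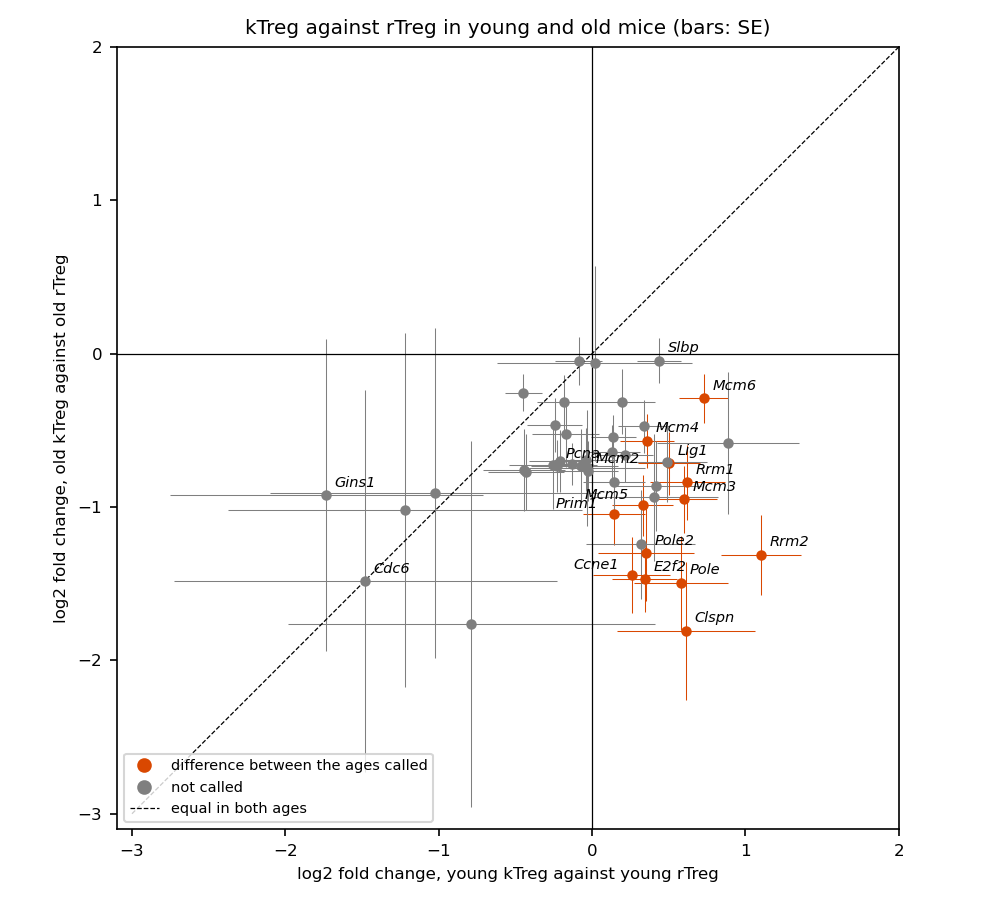
Log2 fold change of kTreg against rTreg cells in young mice (horizontal) and in old mice (vertical) for the 46 members, with SE bars and orange points where the difference between the ages was called (13 members). All points lie below 0 on the vertical axis, while the horizontal values lie on both sides of 0, from −1.73 for Gins1 to 1.10 for Rrm2. The Gins1 value includes a library at 0, young kTreg replicate 4.

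For aTreg against rTreg cells 3 members (6.52%) had a lower difference in old mice, where 1.05% of genes tested were called lower and 0.511% higher: E2f2 (−1.63, SE 0.30, adjusted p = 0.0103), Pole (−1.98, SE 0.43, adjusted p = 0.0246) and Mcm5 (−1.13, SE 0.28, adjusted p = 0.0454). The median difference was −0.66 over the members and 0.10 over all genes, Mcm2 had −0.86 (SE 0.28, adjusted p = 0.125), and Prim2 lay furthest the other way at 0.30. None of the G2/M genes (median −1.22) and 1 of the other replication genes, E2f4, was called. With the mouse as a replicate block the count of members was 5. It was 9 with DESeq2, 5 with the filter at 50 and 1 with upper quartile rescaling. Mcm5 kept its call in 12 of 37 alternatives. It was 9 without young rTreg replicate 2 or without young mouse 2, 1 without young rTreg replicate 3 or 4, young aTreg replicate 4, old mouse 2 or young mouse 3, 0 without old mouse 1 and 13 without both young mouse 2 and young kTreg replicate 4.

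For kTreg against aTreg cells limma called 0 members, where 0.0421% of genes tested had a higher and 0.114% a lower difference in old mice. edgeR and DESeq2 also called 0, and 8 members had an unadjusted p below 0.05. The median difference was −0.20 over the members and 0.14 over all genes. Mcm2 had 0.12 (SE 0.28, adjusted p = 0.892) and Rrm2 −0.99 (SE 0.37, adjusted p = 0.39). Ccne2, listed at 0 in young kTreg replicate 4, lay furthest above 0 (1.42, SE 1.63, adjusted p = 0.761). The call of 7 members in young mice and of 0 in old mice is therefore not shown to differ between the ages, and the same holds for the G2/M genes, of which 0 had a called difference (median −1.23).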

How the data were processed

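RNA of the sorted cells was extracted with RNeasy Micro columns, made into cDNA with SMART-Seq v4 and sequenced as paired-end reads of 150 bases. Per the submitters' processing notes and the study's methods, the authors used HISAT2 2.2.1, SAMtools 1.13, HTSeq 1.99.2 and DESeq2 1.44.0 with GRCm39. For 17464 genes, each with a sum of 100 reads or more, the authors deposited a size-factor-normalized signal (reads per gene over the library's factor). The annotation release, the strand setting and the treatment of reads with several positions are not given in the sources used here. SMART-Seq v4 adds no molecular identifiers, so 2 reads may be copies of 1 molecule, and errors below are the spread over mice. All columns were mapped to a sample, with 0 left over.

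Whole reads were recovered from the steps between values (100% of values whole within 0.001 reads). Depth was 15045747 to 29521942 reads per library. Symbols and positions came from GENCODE on GRCm39 for 17353 genes, and 111 had none. limma 3.58.1 in R 4.3.3 was fitted to log2(value + 1) of 16630 genes that reached 10 in 4 or more libraries, with a trended prior variance and the 6 groups as terms. Adding 1 shrinks the fold changes of low genes, whereas a single library at 0 can widen them, as for Gins1 in young kTreg cells. A call needed a Benjamini-Hochberg adjusted p under 0.05 in limma together with a fold change over 1.5. Python 3.11.15, numpy 2.4.6, pandas 2.3.3 and matplotlib 3.10.9 were used for the other steps. On simulated reads with 200 changed genes in young kTreg against young aTreg libraries, the fit recovered 48.5%, 58% at a log2 change of 2 and 39% at 1, with 4.9% of its calls unchanged genes, and it called 0 with none changed.

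The series' design text gives a shared mouse of origin for the subsets, so equal numbers mark paired libraries. Deviations from the group means had a median correlation between libraries of a mouse of 0.116 (kTreg and aTreg), 0.153 (aTreg and rTreg) and 0.091 (kTreg and rTreg), against −0.051, −0.033 and −0.034 between mice, and the consensus correlation was 0.062.

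Members, gene lists and tests were chosen with earlier results of these data known. The lists were 57 listed other replication genes (of 58), 20 G2/M and mitosis genes, and markers of Treg cells and of other cells, of which those of basophils and mast cells and of granulocyte precursors were added after values were seen. Some marker genes are not reported here. Named in each comparison were Mcm2, Pcna, the members called and the member furthest from the members' median direction, and values in every library are given for Mcm2, Pcna and 1 member per class with the smallest p, with other members given as group means. Alternatives were other pseudocounts (0.5, 5), other filters (none, or at 50), TMM and upper quartile rescaling, the mouse as a random or fixed block, only the groups compared, edgeR 4.0.16 and DESeq2 1.42.0 on the recovered reads, other thresholds, and each library or mouse left out. Leaving out young mouse 2 with young kTreg replicate 4, or old rTreg replicates 2 and 3, was added after values were seen.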

Additional observations from a re-analysis of the deposited data

Results flagged for a closer look

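The 11 members whose values are given in every library were examined for single libraries far from the other 3 of their group, in 66 groups. 4 of the 66 groups held such a library, close to the share of about 1 in 20 groups that chance alone gives. The Mcm2 value of old rTreg replicate 4, 5347 normalized reads, was the highest of its group. Chaf1b had its lowest old rTreg value in replicate 3, 835.3. E2f2 had its highest old aTreg value in replicate 3, 397.4, in a group with a narrow range. Mcm7 had its highest young kTreg value in replicate 1, 3905.

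In 13 members the difference between kTreg and rTreg cells was lower in old than in young mice, by the test of that difference in limma. On the log2 scale it was −1.549 for Mcm3, −0.9273 for Mcm4, −1.32 for Mcm5 and −1.019 for Mcm6. It was −1.19 for Prim1, −2.074 for Pole and −1.652 for Pole2. It was −1.217 for Lig1, −2.42 for Clspn, −1.461 for Rrm1 and −2.413 for Rrm2. It was −1.816 for E2f2 and −1.701 for Ccne1. For aTreg against rTreg cells the same test found −1.127 for Mcm5, −1.981 for Pole and −1.634 for E2f2. These differences share the rTreg libraries of both ages. Of 37 alternatives tried, the kTreg against rTreg call was kept in 16 for Mcm4, 16 for Pole2 and 19 for Clspn. The aTreg against rTreg call of Mcm5 was kept in 12.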

How the results depend on the processing

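Of 2259 values of called members under the alternatives 1781 kept their call, 478 lost it and 0 changed sign. With only the groups compared in the model, members called were 3 in young kTreg against aTreg, 1 in old kTreg against aTreg, 1 in young kTreg against rTreg, 1 in young aTreg against rTreg, 3 in old against young rTreg, 0 in old against young kTreg and 7 for the difference between the ages of kTreg against rTreg. Upper quartile rescaling, which moved the median of all genes in old against young rTreg cells from −0.08 to −0.26 and that of the members from 0.62 to 0.43, gave 9 in old kTreg and 14 in old aTreg against rTreg, 7 in old against young rTreg, 0 in old against young kTreg, and 5 and 1 for the differences between the ages of kTreg and of aTreg against rTreg. The filter at 50 gave 1 in old kTreg against aTreg and 5 for the difference of aTreg against rTreg, and the random replicate block for the mouse gave the same counts of 1 and 5 and changed no other count by over 1.5 times. DESeq2 called 1 in old kTreg against aTreg, 2 in young aTreg against rTreg, 4 in old against young kTreg and 9 for the difference of aTreg against rTreg, and edgeR called 9 in old against young rTreg. With no fold threshold 4 were called in young kTreg against rTreg. Unadjusted p with the fold threshold gave 1 in old kTreg against aTreg, 4 in young kTreg and 4 in young aTreg against rTreg, 5 in old against young kTreg, and 7, 26 and 18 for the 3 differences between the ages (kTreg against aTreg, kTreg against rTreg, aTreg against rTreg).

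With 1 library or 1 mouse left out, members called ranged from 1 to 8 in young kTreg against aTreg, 0 to 1 in old kTreg against aTreg, 1 to 8 in young kTreg against rTreg, 7 to 22 in old kTreg against rTreg (12 without old mouse 3), 10 to 21 in old aTreg against rTreg, 5 to 19 in old against young rTreg, 0 to 2 in old against young kTreg, and 3 to 20 and 0 to 9 for the differences of kTreg and of aTreg against rTreg. Without young mouse 2 and young kTreg replicate 4 they were 13 in young kTreg against rTreg, 24 in old against young rTreg, 3 in old against young kTreg, and 26 and 13 for those differences, and without old rTreg replicates 2 and 3 they were 9 in old against young rTreg. The cause of these changes was not tested, and the shares of all genes called under the same alternatives are not given. The 5 members listed at 0 in young kTreg replicate 4 had SEs above 1. That library held 21653939 reads, the most of its group, and why it listed 4913 genes at 0 was not tested.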

Other observations

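Other letters set the promoters of the replication genes apart from those of the G2/M genes, which moved to the same side in the comparisons with old rTreg cells. The CHR string TTTGAA, on either strand, which marks many genes of mitosis, was in 18.2% of the 44 windows of the members and in 66.7% of the 18 windows of the G2/M genes, against 12.7% of windows of genes tested. The CCAAT string was in 52.3% and 83.3%, against 37.5%. The E2F strings were in 34.1% and 5.56%, and in 27.6% of the 58 windows of the other replication genes. These shares describe windows of 300 bases, and genes of a list are not independent of each other.

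Over the 15 members with E2F strings and the 23 with a window that lacks them, the median log2 fold changes were −0.84 and −0.68 in old aTreg against old rTreg cells (8 and 12 called) and −0.72 and −0.74 in old kTreg against old rTreg cells (7 and 13 called). In the difference between the ages of kTreg against rTreg cells they were −0.81 and −0.77, with 7 and 4 called.

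Erythroid marker sums were 817.8 to 2399 in old rTreg and 87.3 to 6935 in young rTreg libraries, and CD8 T cell sums 295 to 554.3 and 566.1 to 2185.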
